A study of Mus musculus with 4 samples.

Results

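Solute carrier genes encode membrane proteins that move sugars, amino acids, ions, nucleotides and metabolites across the plasma membrane and the membranes of organelles. The genes described here are the symbols built as Slc, a family number, a letter and a member number, with at least 20 direct RNA reads summed over 4 libraries. Of 237 symbols of this form, 3 were left out by name, 152 had too few reads and 82 were kept, out of 13831 gene symbols in all. The members were thus chosen by total read number, which is given below as a description only. Of the genes left out by name, Slc9a3r1 had 141 reads, Slc16a3 had 99 and Slc38a10 had 65. Just inside the minimum lay Slc6a6 with 20 reads and Slc25a40, Slc27a3, Slc39a1, Slc7a11 and Slc9a3r2 with 21 each. Just outside it lay Slc26a2, Slc35f5 and Slc38a7 with 19 each and Slc35d2 with 18. Of the 82 kept, Slc4a1ap, Slc7a6os and Slc9a3r2 are named after a carrier gene and encode no carrier themselves.

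The study measured poly(A) tails in mouse embryonic stem cells of the J1 line, kept undifferentiated by the cytokine LIF in medium with fetal calf serum, and asked how tail length differs without Mov10, an RNA helicase. There were 2 wild-type libraries (WT 1 and WT 2) and 2 Mov10 knockout libraries (KO 1 and KO 2), with no treatment in either genotype. How the knockout was made, and whether it is 1 clone, is not given in the sources used here. Nothing says that the replicates came from separate cultures, so p-values measure only the spread between these libraries. In direct RNA nanopore sequencing each read is 1 RNA strand passing through a pore with its tail, and the deposited table gives a tail length in nucleotides (nt) for each read.

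The libraries WT 1, WT 2, KO 1 and KO 2 held 439535, 351133, 683239 and 430012 usable reads. Solute carrier genes took 2016, 1582, 3316 and 2182 of them, and every one of the 82 had a read in every library. Mov10 itself had 26 and 14 reads in the WT libraries and 0 and 1 in the KO libraries (adjusted p = 0.0553 by limma voom). All 10 embryonic stem cell markers looked for were read, while 1 of 6 fibroblast markers, 3 of 6 primitive endoderm markers, 3 of 5 markers of differentiating epiblast and mesoderm and 1 of 4 trophoblast markers had any read. WT 1 stood apart from the other libraries in the transcripts to which its reads were assigned. Over 855 genes with at least 50 reads in each library, more than 20% of the reads lay on other transcripts in 62 to 94 genes when WT 1 was set against another library, and in 3 to 9 genes for pairs without WT 1. Where a single gene's log2 change printed below turned its sign or moved by over 1.5 times without WT 1, the value without it stands beside it.

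Solute carriers are grouped by family, and a family usually shares its kind of substrate. Most of the Slc25 family sits in the inner mitochondrial membrane and exchanges nucleotides, phosphate and metabolites with the cytosol. Slc2 members carry glucose and related sugars by facilitated diffusion, and Slc1, Slc7 and Slc38 members carry amino acids. Slc7 light chains such as Slc7a5 and Slc7a7 reach the cell surface only when bound to the heavy chain Slc3a2. Slc30 and Slc39 members move zinc in opposite directions, and Slc35 members bring nucleotide sugars into the Golgi and the endoplasmic reticulum.

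The members differed widely in read number. Slc25a3, the mitochondrial phosphate carrier, had 1413 reads and Slc25a5, an ADP/ATP translocase, had 1106. These 2 genes made up 27.7% of all 9096 member reads. Slc25a39, needed for import of glutathione into mitochondria, followed with 529 reads, Slc3a2 with 420 and Slc25a4, another ADP/ATP translocase, with 384. Only 14 of the 82 had at least 20 reads in each library, and 6 had at least 50. Member reads could be assigned to a gene with little overlap: 4.31% lay on transcripts that also carried another symbol, against 53.4% of all reads, and without Slc25a4 the share was 0.09%.

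Tail length of the solute carrier genes did not differ between genotypes past the threshold in any of the 14 members with enough reads for a test. The test was limma on log2 of the median tail length of each gene and library, over 1935 genes with at least 20 reads in each library, with a threshold of an adjusted p of 0.05. It called 0 of 14 members and 0 of 1935 genes, 0% of those tested. At an unadjusted p under 0.05 there were 0 members, against 2.33% of all genes tested. The median log2 change, KO against WT, was 0.05 over the members (-0.02 without WT 1) and 0.01 over all genes, with 10 members above zero and 4 below. The standard errors ran from 0.12 to 0.24, and the 95% intervals of the single members lay between -0.52 and 0.53. Slc2a1 was the 1 member, 7.14% of those tested, whose KO libraries both lay above its WT libraries, a pattern found in 14.7% of all genes tested. The reverse was found in 0 members and in 11.8% of all genes. With 2 libraries against 2, an exact permutation test of a single gene could not give a p below 0.333.

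**Figure D1:**
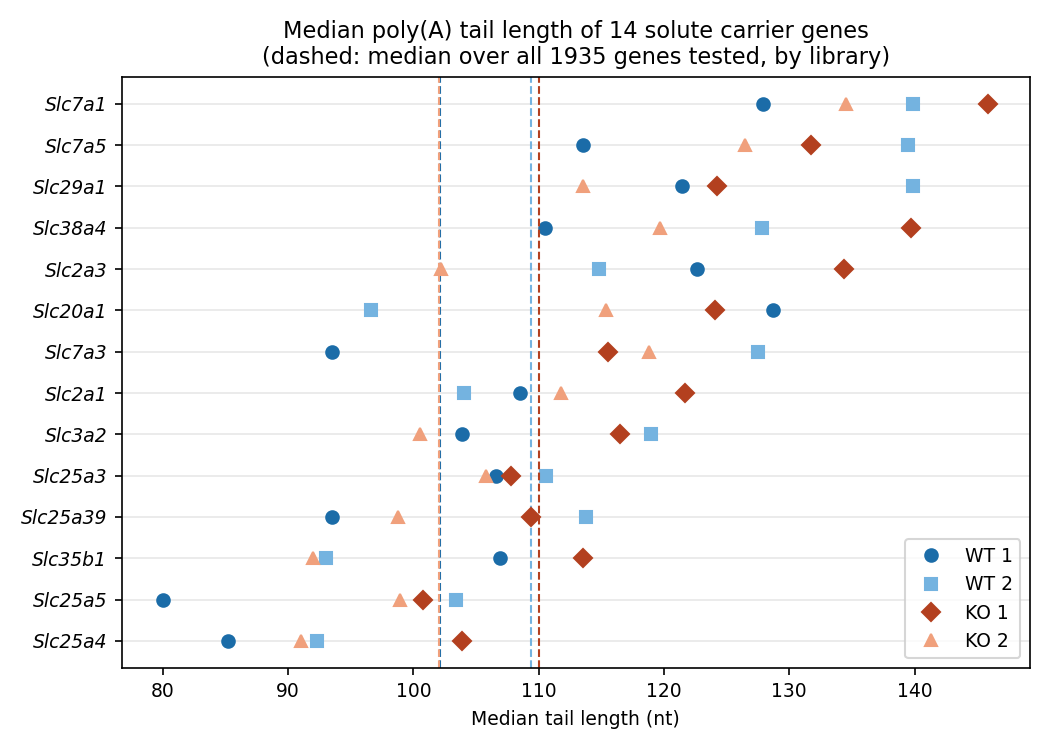
Median poly(A) tail length in nt (x axis) of the 14 solute carrier genes with at least 20 reads in each library (y axis), 1 marker for each of the 4 libraries, with dashed lines at the median over all 1935 genes tested in each library. Slc25a4 and Slc25a5 sit at the short end, Slc7a1 at the long end between 127.9 and 145.9 nt, and the genotypes overlap in every gene but Slc2a1.

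Within the libraries the members kept different tail lengths. The shortest mean over the libraries was that of Slc25a4, with medians of 85.2, 92.3, 103.9 and 91.0 nt in WT 1, WT 2, KO 1 and KO 2 (93.1 ± 7.80 nt, SD, n = 4). All its reads lie on a transcript that carries 1 read of another symbol. The longest was that of Slc7a1, a carrier of arginine and lysine, with 127.9, 139.9, 145.9 and 134.5 nt (137.1 ± 7.71 nt, SD, n = 4). Every library had Slc7a1 above Slc25a4, by 42.6, 47.6, 42.1 and 43.5 nt. Among the 1935 genes tested, Slc25a4 stood at percentile 15.5 of mean tail length and Slc7a1 at percentile 96.6. Slc7a1 rests on only 20 to 49 reads a library. Neighbours in this order were mostly closer to each other than the spread over libraries, and the middle of the list, from Slc35b1 (101.3 ± 10.6 nt, SD, n = 4) to Slc2a3 (118.5 ± 13.5 nt), could not be ordered.

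Of the 14 members, the one with most reads also had the smallest spread. Slc25a3 had median tails of 106.6, 110.6, 107.8 and 105.8 nt in WT 1, WT 2, KO 1 and KO 2 (107.7 ± 2.09 nt, SD, n = 4). Its log2 change was -0.02 (-0.05 without WT 1), with a 95% interval from -0.26 to 0.22. Its median was near that of all genes, at percentile 56.6.

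In Slc25a5 the WT libraries lay apart from each other. The medians were 80.0 nt in WT 1, from 377 reads, and 103.4, 100.8 and 98.9 nt in WT 2, KO 1 and KO 2. The order-statistic 95% interval of the WT 1 median, 73.4 to 87.2 nt, did not reach those of the other libraries, the lowest of which began at 92.7 nt. Its log2 change was 0.14 (unadjusted p = 0.291 and adjusted p = 0.9998 by limma, the smallest unadjusted p of the 14), and -0.05 without WT 1. WT 1 was thus low and the other 3 libraries, of both genotypes, lay together.

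The other small p-values were no closer to the threshold. Slc2a1, the ubiquitous glucose transporter, had medians of 108.5 and 104.0 nt in WT and 121.7 and 111.8 nt in KO. Its log2 change was 0.14 (SE 0.16, adjusted p = 0.9998 by limma). Slc29a1, an equilibrative nucleoside transporter, had 121.4 and 139.9 nt in WT and 124.2 and 113.5 nt in KO, a log2 change of -0.13 (-0.24 without WT 1) from 21 to 64 reads a library. In Slc38a4, an amino acid transporter, the medians were 110.5 and 127.8 nt in WT and 139.7 and 119.7 nt in KO, a log2 change of 0.12 (0.02 without WT 1). For both genes the genotypes overlapped. Slc25a4 had a log2 change of 0.13 (unadjusted p = 0.387 by limma; 0.08 without WT 1), and its KO 2 median lay below that of WT 2.

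Amino acid carriers with at least 20 reads in each library lay above the median gene in most libraries. Slc7a5, the light chain of the large neutral amino acid transporter, had medians of 113.5, 139.5, 131.7 and 126.5 nt (127.8 ± 10.9 nt, SD, n = 4). Slc3a2, its heavy chain, had 103.9, 119.0, 116.5 and 100.5 nt. Slc7a3, another carrier of cationic amino acids, had 93.5 nt in WT 1 and 127.5, 115.5 and 118.8 nt elsewhere. With fewer reads, Slc7a7 had 100.85, 92.0, 114.94 and 80.4 nt and Slc6a8 had 97.1, 121.4, 104.5 and 92.2 nt. These 2 genes lay below the median gene in most libraries. Over all genes with at least 10 reads in each library that median was 104.4, 111.4, 112.2 and 102.6 nt. Over the 11 amino acid and amine carriers with at least 10 reads in each library, the median was 110.5, 127.8, 120.1 and 118.8 nt, beside 90.9, 119.8, 103.3 and 102.4 nt over 8 mitochondrial carriers. The order of these 2 groups was the same in the 4 libraries; genes are not replicates, so this has no test.

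Over all 14 members the median tail was 107.7, 114.3, 119.1 and 108.8 nt in WT 1, WT 2, KO 1 and KO 2. Over all 1935 genes it was 102.1, 109.4, 110.0 and 102.0 nt, so the members lay higher by 5.56, 4.96, 9.11 and 6.89 nt. This difference depended on the minimum of reads. Over the 6 members with at least 50 reads a library it was -1.49, 4.37, 1.5 and -1.91 nt. WT 1 and KO 2 were the libraries of shorter tails and WT 2 and KO 1 those of longer tails, for members and for all genes alike.

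**Figure D2:**
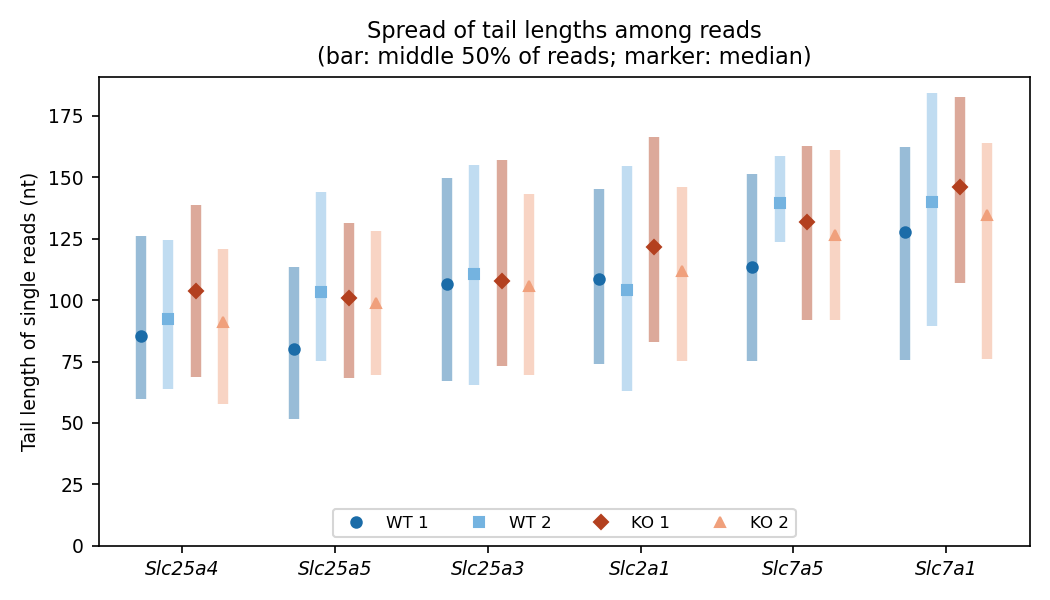
Tail length of single reads in nt (y axis, from 0) for 6 solute carrier genes (x axis) in each library: bars span the middle 50% of reads and markers give the median. The bars of a gene overlap between all libraries, and the WT 1 bar of Slc25a5 (51.4 to 113.4 nt) is the lowest of that gene.

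Single molecules varied far more than the medians. Reads of Slc25a3 in KO 1 had a middle 50% from 73.3 to 157.2 nt around a median of 107.8 nt. Pooled over all 82 members, 24.3% of reads in WT 1 had tails of 150 nt or more (95% Wilson interval 22.4 to 26.2), beside 18.8% of all reads. In WT 2 the share was 29.8% (27.6 to 32.1), in KO 1 it was 30.3% (28.8 to 31.9) and in KO 2 it was 24.9% (23.1 to 26.7), beside 24.0%, 23.7% and 19.6% of all reads. Tails under 30 nt made up 3.08%, 4.36%, 2.14% and 4.17% of member reads and 2.35%, 3.02%, 1.55% and 2.75% of all reads. Pooled member reads thus had larger shares at both ends than all reads in each library. Averaged over members instead, the share under 30 nt in WT 1 was 2.26%, below that of all reads. The genotypes overlapped for both pooled shares. The intervals cover counting error only.

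Read number of the solute carrier genes was compared after median-of-ratios scaling and is given in reads per 1000000 reads (RPM). Each read is 1 molecule, so RPM needs no correction for gene length, but in bulk RNA fewer cells of a type and less RNA per cell cannot be told apart. Over 4815 genes whose mean was 10 reads or more, limma voom called 0 of the 45 members tested at an adjusted p of 0.05, as it did for 0% of all genes. The smallest adjusted p was 0.180, for Slc38a2. At an unadjusted p under 0.05 there were 6 members of 45, beside 10.3% of all genes. In 14 members, 31.1%, both KO libraries lay above both WT libraries, beside 20% of all genes, and in 7, 15.6%, both lay below, beside 20.5%. The minimum of reads bears on these counts, since a gene high in 1 genotype passes it more readily. Over all 82 members 18 lay above, beside 20.6% of all 6937 symbols with at least 20 summed reads, and 16 lay below, beside 19.1%. Among the 37 members not tested, 4 lay above, beside 21.7% of the 2122 such symbols, and 9 below, beside 15.8%. The median log2 change was 0.13 over the members and -0.01 over all genes. Scaled by total reads the median over all genes became 0.11, and changes are to be read relative to that shift: 16 members then lay above and 6 below, with Slc25a4 among those added above and Slc9b1 no longer below. Of the 10 stem cell markers 0 were called, with 6 lower in both KO libraries. Their summed level was 10598.3 and 9456.3 RPM in WT and 8099.0 and 6874.7 RPM in KO. Markers of differentiating epiblast and mesoderm came to 16 and 10 reads in WT and 4 and 3 in KO, mostly of Otx2, with 13 and 8 in WT and 3 and 0 in KO. Mixl1 had 0 and 1 reads in WT and 0 and 2 in KO, and the remaining reads were of Eomes. The part of these markers in the values below was not tested.

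**Figure D3:**
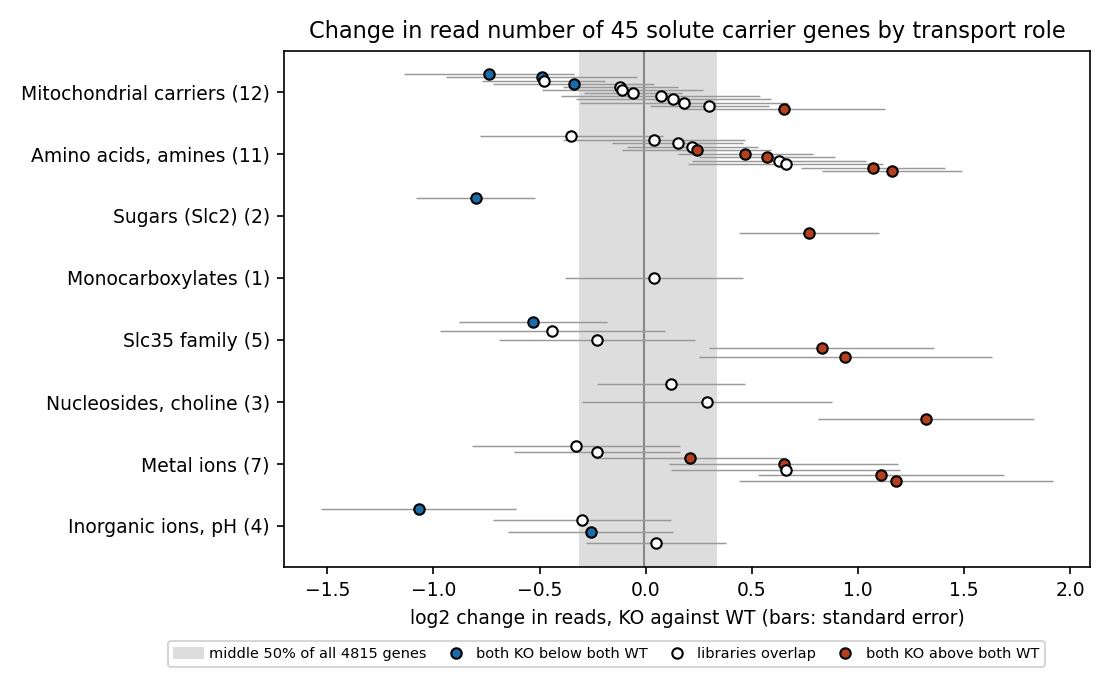
Log2 change in read number, KO against WT (x axis), of the 45 solute carrier genes tested, in rows by transport role (y axis, number of genes in brackets), with bars for the standard error and a grey band for the middle 50% of all 4815 genes (-0.31 to 0.33). Amino acid carriers lie mostly to the right of the band's centre, Slc2a1 and Slc2a3 lie on opposite sides, and no gene passed the threshold.

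Among amino acid and amine carriers positive log2 changes were in the majority, and 0 were called. Of 11 tested, 10 had a positive log2 change and 1, the glutamine carrier Slc1a5, a negative one (-0.35, and 0.33 without WT 1). Both KO libraries lay above both WT libraries in 5 members and below in 0, and the median log2 change was 0.47 (0.33 without WT 1 and 0.23 without KO 1). Over all 4815 genes tested, 965 lay above and 987 below, and 49.4% had a positive change. Slc38a2, which takes up small neutral amino acids with sodium, had 70.6 and 52.8 RPM in WT and 131.3 and 150 RPM in KO. The log2 change was 1.16 (SE 0.33, unadjusted p = 0.00225 and adjusted p = 0.180 by limma voom). Slc7a7, a light chain that exchanges cationic for neutral amino acids, had 52.9 and 50.0 RPM in WT and 108.4 and 112.5 RPM in KO, a log2 change of 1.07 (SE 0.34, adjusted p = 0.243). In both genes the KO libraries were the higher ones and the replicates lay close together. Slc7a5 had 98.3 and 77.8 RPM in WT and 108.4 and 165.5 RPM in KO (log2 change 0.57, SE 0.32), and the remaining members of the 5 were Slc38a4 (0.47, and 0.18 without WT 1) and Slc7a1 (0.24, and 0.09 without WT 1).

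In Slc3a2 and Slc7a3 the genotypes overlapped. The heavy chain Slc3a2 had 282.4 and 141.7 RPM in WT and 215.5 and 233.9 RPM in KO, so KO lay between the WT libraries. The change on the log2 scale was 0.15, and 0.64 without WT 1. Slc7a3 had 93.3 and 111.2 RPM in WT and 135.6 and 101.5 RPM in KO (log2 change 0.22, and 0.09 without WT 1). Summed over the 13 amino acid and amine carriers the level was 900.0 and 808.6 RPM in WT and 1137.2 and 1147.3 RPM in KO.

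Amino acid shortage raises transcription of several carriers through the factor ATF4, which binds a composite element with the letters TGATGNAAN. This motif was searched on both strands of RefSeq promoter windows (GRCm38.p6) from 250 bases before to 50 after the start, since several amino acid carriers lay higher in KO. It occurred in 3.95% of 32851 windows and in 6.67% of 90 member windows, which belong to 65 members matched by symbol. It was found in 5 of these members: Slc7a7, whose 2 windows overlap, Slc1a4 and Slc7a11 among 7 matched amino acid and amine carriers, and Slc49a4 and Slc50a1 of other roles. Of the 13 amino acid and amine carriers only these 7 had a window, so a carrier not listed may not have been searched. Bases outside the windows were not searched. The windows of the 3 amino acid carriers are shown for their matches, in capitals, each read 5′ to 3′ on the minus strand: Slc7a7 at chr14:54417895-54418194, Slc1a4 at chr11:20332664-20332963 and Slc7a11 at chr3:50443564-50443863.
Slc7a7: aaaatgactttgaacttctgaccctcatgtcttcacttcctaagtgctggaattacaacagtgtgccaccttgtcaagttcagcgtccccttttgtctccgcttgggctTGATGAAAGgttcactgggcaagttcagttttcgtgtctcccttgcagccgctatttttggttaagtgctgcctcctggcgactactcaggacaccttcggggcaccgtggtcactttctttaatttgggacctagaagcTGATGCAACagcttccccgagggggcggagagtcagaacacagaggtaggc
Slc1a4: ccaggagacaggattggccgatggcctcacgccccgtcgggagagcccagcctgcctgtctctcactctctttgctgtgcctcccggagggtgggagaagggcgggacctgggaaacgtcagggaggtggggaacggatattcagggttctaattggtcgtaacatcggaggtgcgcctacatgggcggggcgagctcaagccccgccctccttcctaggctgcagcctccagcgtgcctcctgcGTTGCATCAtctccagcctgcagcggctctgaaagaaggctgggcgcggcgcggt
Slc7a11: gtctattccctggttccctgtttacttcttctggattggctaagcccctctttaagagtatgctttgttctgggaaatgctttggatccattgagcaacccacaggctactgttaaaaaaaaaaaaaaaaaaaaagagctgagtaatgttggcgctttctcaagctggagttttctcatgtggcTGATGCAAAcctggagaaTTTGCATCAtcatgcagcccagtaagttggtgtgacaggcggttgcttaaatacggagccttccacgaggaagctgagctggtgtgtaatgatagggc
The capitals begin 141 bases and 1 base before the start in Slc7a7, 5 bases before it in Slc1a4, where the match is on the other strand, and 66 and 48 bases before it in Slc7a11, where the nearer match is on the other strand. A match describes letters and is not a bound site.

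These 3 genes did not share a read pattern. Slc7a7 was higher in both KO libraries, as given above. Slc1a4, a carrier of alanine, serine and cysteine, had 10 and 13 reads in WT and 45 and 15 in KO, and its KO 2 level of 33.1 RPM lay below that of WT 2 at 36.1 RPM. Slc7a11, the light chain of the cystine and glutamate exchanger, had 4 and 4 reads in WT and 10 and 3 in KO, too few for a test. Of 14 genes of the amino acid response listed beside the carriers, 0 were called, 3 had both KO libraries above both WT libraries and 0 below, with a median log2 change of 0.07. Positive changes numbered 9 and negative ones 5. Over all 4815 genes tested, 965 lay above and 987 below, so 3 of 14 above was close to the share over all genes. Atf4 had 519.3 and 252.9 RPM in WT and 206.9 and 273.6 RPM in KO, a log2 change of -0.62 (-0.12 without WT 1). Asns, asparagine synthetase and a well known target of ATF4, had a log2 change of -0.12 (0.13 without WT 1). Those higher in both KO libraries were Pycr1 (0.89, and 1.42 without WT 1), Phgdh (0.52) and Shmt2 (0.40), enzymes of proline, serine and glycine synthesis.

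**Figure D4:**
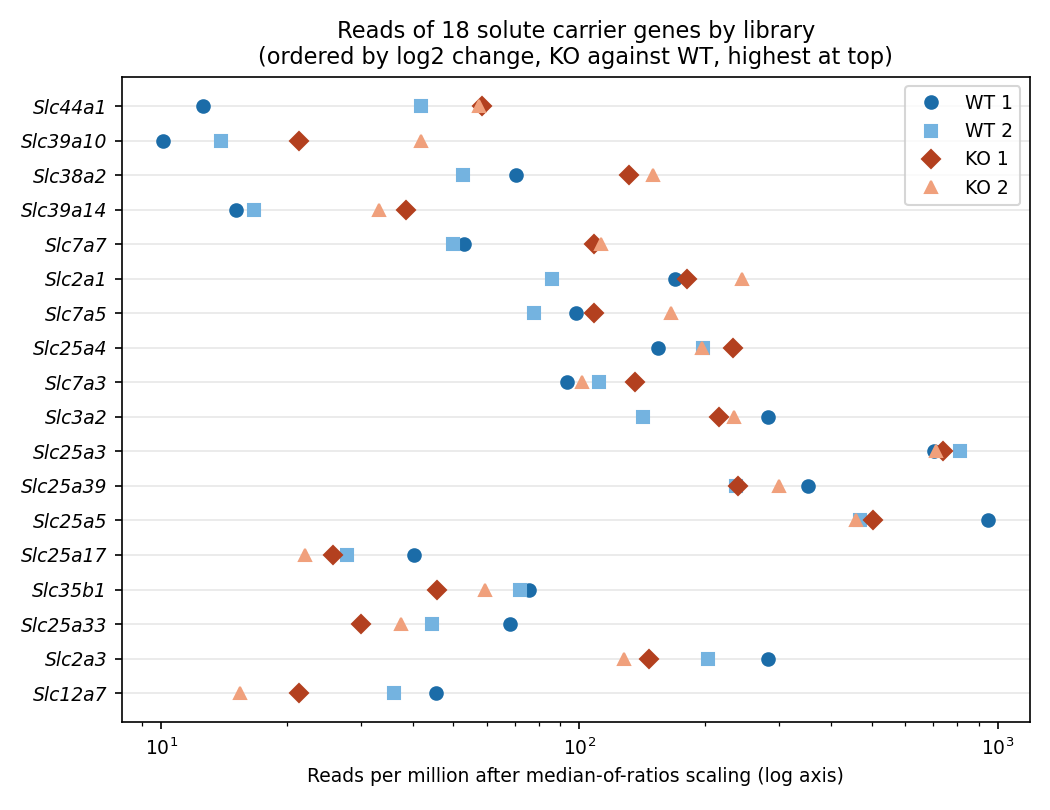
Reads per 1000000 after median-of-ratios scaling (x axis, log scale) of 18 solute carrier genes (y axis, ordered by log2 change, highest at the top), 1 marker for each of the 4 libraries. In Slc38a2 and Slc7a7 both KO markers lie to the right of both WT markers, in Slc2a3 and Slc12a7 to the left, and the single WT 1 marker of Slc25a5 lies far from the other 3.

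The 2 glucose transporters with enough reads had opposite signs. Slc2a3, a high-affinity glucose transporter, had 282.4 and 202.9 RPM in WT and 147.0 and 128.0 RPM in KO, a log2 change of -0.80 (SE 0.28, adjusted p = 0.318 by limma voom). Slc2a1 had 168.9 and 86.1 RPM in WT and 181.2 and 244.9 RPM in KO, a log2 change of 0.77 (SE 0.33, adjusted p = 0.429). Neither genotype overlapped the other in these genes, although WT 1 and KO 1 were close for Slc2a1. Slc2a1 reads per Slc2a3 read were 0.6 and 0.42 in WT and 1.23 and 1.91 in KO. The sum of both was 451.3 and 289.0 RPM in WT and 328.2 and 372.9 RPM in KO, so KO lay between the WT libraries. Both changes depended on single WT libraries. For Slc2a1 the log2 change was 1.24 without WT 1 (adjusted p = 0.0283 by limma voom) and 0.29 without WT 2 (adjusted p = 0.61). For Slc2a3 it was -0.56 without WT 1 (adjusted p = 0.505) and -1.03 without WT 2 (adjusted p = 0.00855).

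The mitochondrial carrier family Slc25, whose member Slc25a17 is peroxisomal, had 12 members tested, of 20. Both KO libraries lay above both WT libraries in 1 of the 12 and below in 3. Over all 20, 1 lay above and 8 below, and the 5 added below had too few reads for a test. Of these 5, Slc25a40 became a member only through its WT reads. Of all 4815 genes tested, 965 lay above and 987 below. Of all 6937 symbols with enough summed reads to be a member, 1426 lay above and 1322 below. Over the 12, the median log2 change was -0.08 (0.07 without WT 1 and -0.31 without WT 2). Slc25a3 had 703.4 and 814.2 RPM in WT and 739.1 and 712.6 RPM in KO. The log2 change was -0.06 (-0.17 without WT 1), with a 95% interval from -0.54 to 0.43. Slc25a5 had 950.4 RPM in WT 1 and 469.6, 502.3 and 458.9 RPM in WT 2, KO 1 and KO 2. Its log2 change of -0.48 rested on WT 1: it was 0.03 without WT 1 and -0.98 (adjusted p = 0.0012 by limma voom) without WT 2. The same library had the shortest Slc25a5 tails. Slc25a4 reads per Slc25a5 read were 0.16 in WT 1 and 0.42, 0.46 and 0.43 elsewhere.

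The summed level of mitochondrial carriers was 2672.3 and 2159.1 RPM in WT and 2121.8 and 2034.2 RPM in KO. Without Slc25a5 it was 1721.8 and 1689.5 RPM in WT and 1619.5 and 1575.3 RPM in KO. The lower members were led by Slc25a33, a pyrimidine nucleotide carrier, with 68.1 and 44.5 RPM in WT and 30 and 37.5 RPM in KO (log2 change -0.74, and -0.45 without WT 1). The peroxisomal Slc25a17 had 40.3 and 27.8 RPM in WT and 25.7 and 22.1 RPM in KO (log2 change -0.49, and -0.23 without WT 1). Slc25a39 had 352.9 and 236.2 RPM in WT and 239.7 and 300.1 RPM in KO, and the genotypes overlapped.

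Metal ion carriers had 7 members tested, of 14. Both KO libraries lay above both WT libraries in 4 and below in 0, beside 965 and 987 of all 4815 genes tested. The median log2 change of these carriers was 0.65 (0.26 without WT 1, and 0.16 without KO 1 over the 5 members then tested). Slc39a14, which imports zinc, iron and manganese, had 15.1 and 16.7 RPM in WT and 38.5 and 33.1 RPM in KO. The log2 change was 1.11 (SE 0.58, adjusted p = 0.534 by limma voom). Slc39a10, a zinc importer, had 10.1 and 13.9 RPM in WT and 21.4 and 41.9 RPM in KO (log2 change 1.18, SE 0.74), from 4 to 19 reads a library. WT reads numbered 6 and 6 for Slc39a14, 4 and 5 for Slc39a10 and 6 and 9 for Slc41a1, also among the 4. These genes reached the minimum mean of 10 reads only through KO, Slc41a1 narrowly. The count of 4 and the median of 0.65 are thus tied to which genes were tested. The zinc exporter Slc30a1 and the zinc transporter Slc39a7 of the secretory pathway had log2 changes of -0.33 and -0.23 (-0.63 without WT 1 for Slc39a7), with overlapping genotypes. The direction was therefore not shared by all 7.

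Among the remaining roles, Slc44a1, a choline transporter, had 12.6 and 41.7 RPM in WT and 58.5 and 57.4 RPM in KO. Its log2 change of 1.32 (SE 0.51, adjusted p = 0.380 by limma voom) was drawn from a WT 1 level of 5 reads. Without WT 1 it was 0.44 (adjusted p = 0.824), and without WT 2 it was 2.09 (adjusted p = 0.0216). Slc12a7, which moves potassium and chloride out of cells, had 45.4 and 36.1 RPM in WT and 21.4 and 15.4 RPM in KO, a log2 change of -1.07 (SE 0.46, adjusted p = 0.449). With 15 and 7 KO reads, Slc12a7 reached the minimum mean of 10 reads only through WT. Its relative Slc12a4 had 1 and 3 reads in WT and 19 and 11 in KO, the opposite order, with a mean under the minimum for a test. Slc12a4 became a member only through its KO reads, so its order is tied to how members were chosen. Slc35b1, which brings ATP into the endoplasmic reticulum, had 75.6 and 72.2 RPM in WT and 45.7 and 59.6 RPM in KO (log2 change -0.53). Of 5 Slc35 members tested, 2 lay higher and 1 lower in both KO libraries, beside 20% and 20.5% of all genes tested. Over all 10 Slc35 members, 2 lay higher and 2 lower, beside 20.6% and 19.1% of all symbols with at least 20 summed reads. The lactate and pyruvate carrier Slc16a1 had a log2 change of 0.04 (-0.22 without WT 1).

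In Slc25a3, Slc2a1 and Slc3a2, transcript assignment followed the library more than the genotype. Of the reads of Slc25a3, 4.30% lay on transcript ENSMUST00000163246.7 in WT 1 (95% Wilson interval 2.48 to 7.37), and 22.5%, 26.6% and 27.2% in WT 2, KO 1 and KO 2. The Slc2a1 transcript ENSMUST00000174372.2 took 28.4% of reads in WT 1 and 51.6%, 48.0% and 50.5% in the others. For Slc3a2 the library WT 1 was the high one: ENSMUST00000010239.5 took 37.5% (29.1 to 46.7) there and 7.84%, 3.97% and 17.9% elsewhere. In these genes WT 2 lay nearer to the KO libraries than WT 1 did. For Slc3a2 the intervals of KO 1 (1.83 to 8.4) and KO 2 (11.8 to 26.3) lay apart. ENSMUST00000138162.1 of Slc7a3 took 10.8% in WT 1 and 40.0%, 53.7% and 30.4% in WT 2, KO 1 and KO 2. In Slc7a7 WT 1 did not stand apart: ENSMUST00000000984.8 took 57.1%, 38.9%, 53.9% and 47.1% in the same order. Tail lengths of the 2 leading Slc25a3 transcripts were 107.4 and 83.7 nt in WT 1, the second from 12 reads, 112.0 and 107.6 nt in WT 2, 111.1 and 96.6 nt in KO 1 and 105.8 and 104.9 nt in KO 2. The transcript with fewer reads thus had the lower median in each library.

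**Figure D5:**
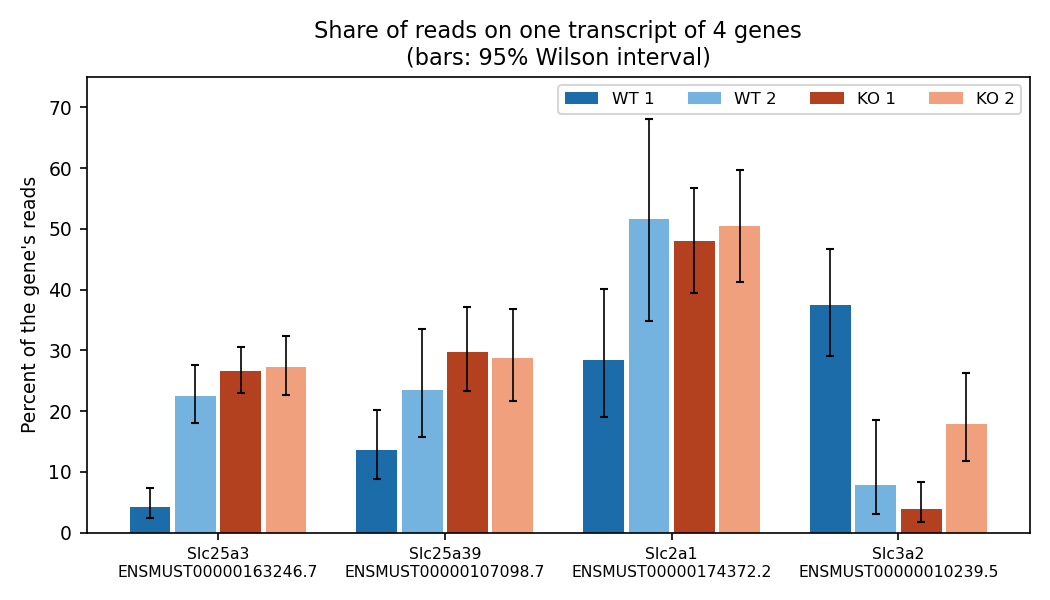
Percent of a gene's reads that lay on 1 named transcript (y axis, from 0) for 4 solute carrier genes (x axis), with 1 bar for each library and 95% Wilson intervals. WT 1 is the lowest bar in Slc25a3 (4.30%), Slc25a39 (13.6%) and Slc2a1 (28.4%) and the highest in Slc3a2 (37.5%), while WT 2 lies near the KO libraries.

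The deposited table also assigns symbols to classes by Mov10 binding and m6A, a methylation of adenosine in mRNA; how the authors made these classes is not stated. Of the 82 members, 19 (23.2%) were Mov10 targets with m6A, 33 (40.2%) targets without m6A and 19 (23.2%) non-targets, and 11 had no class. Among all symbols with at least 20 reads the shares were 19.8%, 31.3% and 33.8%. The median log2 change in read number was 0.41 over 10 tested targets with m6A, 0.07 over 15 without, -0.05 over 10 non-targets and 0.39 over 10 genes with no class. Both KO libraries lay above both WT libraries in 5, 5, 0 and 4 of them and below in 2, 2, 1 and 2. Over all 4815 genes tested, of any class, 965 lay above and 987 below. Such values over all symbols of each class are not given here. The member counts rest on few genes, and no test was made between the classes.

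Lists of related genes were set beside the members. Of 25 solute carrier genes known under other names, 12 were tested, 0 were called, 1 lay higher and 3 lower in both KO libraries, and the median log2 change was -0.09. Among them Mtch2, a Slc25 relative of the outer mitochondrial membrane, had 461.3 and 294.6 RPM in WT and 289.7 and 176.5 RPM in KO (log2 change -0.69, and -0.36 without WT 1). Of 12 partners of carriers and makers of ion gradients, 11 were tested, 0 were called, 3 lay higher and 4 lower, and the median was -0.30. For both lists, the shares over all 4815 genes tested were 20% higher and 20.5% lower in both KO libraries. Atp6v0d1, a subunit of the proton pump of lysosomes, had 216.8 RPM in WT 1, 86.1 RPM in WT 2 and 57.1 and 53.0 RPM in KO, a log2 change of -1.31 (-0.65 without WT 1). Median log2 changes in tail length were 0.06 and -0.01 for the 2 lists.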

How the data were processed

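Per the labels' protocols, the authors enriched polyadenylated RNA on oligo(dT) beads and sequenced it on a MinION, with the direct RNA kit SQK-RNA002 and barcoded adapters. The submitters' processing notes name minimap2 2.20, with no role given. The basecaller, genome build, annotation, tail estimator and read filters are not given in the sources used here. Per the file header, the deposited table holds, for each read, a transcript, a symbol, a library and a tail length in nt (another unit than a count), with no normalization recorded, beside yes-or-no columns for classes. Of 1903922 reads, 3 of length 0 were left out.

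Each gene had 1 median tail length a library. Its log2 entered limma 3.58.1 in R 4.3.3, where lmFit was followed by eBayes with a trend on log2 mean reads, if every library had 20 reads or more of the gene. Reads were counted here and tested with limma voom (mean of at least 10 reads, 0.5 reads added, median-of-ratios scaling), because the table has no column of counts. P-values were adjusted by Benjamini-Hochberg over all genes tested. Tables were handled with Python 3.11.15, pandas 2.3.3, numpy 2.4.6 and scipy 1.17.1. Both fits were checked on simulated data. Replicate numbers did not pair the libraries. A family number gave each member's role.

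The members and lists were chosen with earlier results of these data known. Named in full were the tail length members of highest and lowest mean and of the 5 smallest p. For read number they were the 10 members with most reads, and the 5 with the largest rise and the 5 with the largest fall among those whose genotypes did not overlap. Slc1a4, Slc1a5, Slc7a1, Slc7a11, Slc12a4, Slc16a1, Slc30a1, Slc38a4, Slc39a7 and Slc41a1, among read numbers, and the genes of the related lists were chosen after their values were seen. Alternatives changed the summary, minimum, weights, centring, scaling, model, block and libraries. Values of a few genes are not reported here.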

Additional observations from a re-analysis of the deposited data

How the results depend on the processing

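No tail length call was made among the members under any alternative. Over all genes, tail length calls numbered 1 with a minimum of 10 reads and 0 to 2 without each library in turn. Read number calls over all genes numbered 7 with scaling by total reads, 96 with no filter, 66 with the replicate block and 0 to 451 without each library. Replicate numbers carry no pairing in the labels, and deviations of same-numbered libraries correlated at 0.0135 for tail length and 0.0155 for read number. Among members, read number calls ran from 0 to 4 without each library: Slc2a1 (1.24) without WT 1, and Slc25a5 (-0.98), Slc2a3 (-1.03), Slc44a1 (2.09) without WT 2. Without WT 2, Slc44a1 had 5 WT reads left and the fourth gene, Slc12a4, had 1. Both passed the minimum there only through their KO reads, so both calls are void. A fit without 1 library assumes that the lone library varies like the others. The members' median log2 read change was 0.22 with total scaling, 0.06 with no filter, 0.22 with a mean of at least 30 reads, 0.16 with limma-trend, 0.08 with the replicate block and 0.08 to 0.16 without each library. The members' tail difference from all genes was -1.49, 1.5 and -1.91 nt in WT 1, KO 1 and KO 2 with a minimum of 50 reads, and 1.92, 4.82 and 5.21 nt in WT 2, KO 1 and KO 2 with the mean of log2 lengths. Averaged over members instead of pooled, reads under 30 nt made up 2.26% in WT 1, and reads of 150 nt or more 31.7%, 32.3% and 27.2% in WT 1, WT 2 and KO 2. With the mean of log2 lengths the tail change was 0.03 for Slc25a3, -0.08 for Slc20a1 and -0.01 for Slc7a1, and with weights it was 0.01 for Slc2a3. Leaving out each library, it ran from -0.05 to 0.32 for Slc25a5, -0.13 to 0.15 for Slc25a39, -0.22 to 0.18 for Slc2a3, -0.12 to 0.33 for Slc7a3, -0.11 to 0.19 for Slc7a5, -0.05 to 0.0 for Slc25a3, -0.15 to 0.07 for Slc3a2, -0.11 to 0.31 for Slc20a1 and -0.12 to 0.19 for Slc35b1. The read change ran from -0.98 to 0.03 for Slc25a5, -0.41 to 0.16 for Slc25a39, -0.17 to 0.05 for Slc25a3, which was 0.06 with total scaling, and -0.34 to 0.64 for Slc3a2. The cause of these shifts was not tested. With Slc16a3 and Slc38a10 included, an alternative chosen after seeing the data like the role medians without 1 library, 16 of 47 members lay above and 7 below. The members' median tail change was -0.02 without WT 1, and the mitochondrial carriers' median read change 0.07. The alternatives covered values over groups of members, the 14 members tested for tail length and the 18 named in full for read number. Among these, values not listed here kept their direction and their side of the threshold. Other genes named above with a log2 change were compared only without WT 1. There the read changes of Slc1a5, Slc16a1 and Asns turned their sign. Depth limits the tail test to 14 of 82 members.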

Other observations

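Of the 37 members with too few reads for the read number test, 8 were mitochondrial carriers. In 5 of these both KO libraries lay below both WT libraries and in 0 above, beside 15.8% and 21.7% of all symbols of such read numbers. Slc25a20, which carries acylcarnitines for fatty acid oxidation, had 9 and 13 reads in WT and 10 and 6 in KO, or 22.7 and 36.1 RPM against 14.3 and 13.2 RPM. Slc25a28, a mitochondrial iron importer, had 9 and 9 reads in WT and 10 and 6 in KO. Slc25a40 had 7 and 7 reads in WT and 4 and 3 in KO. Only through WT did it reach the minimum of summed reads, so its place among the 5 is tied to how members were chosen. The vitamin C transporter Slc23a2 had 1 and 3 reads in WT and 9 and 10 in KO. It reached the minimum of summed reads only through KO, so its order is tied to how members were chosen. These genes were named after their values were seen, and their read numbers allow no test.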
